A study of Rattus norvegicus with 36 samples.

Results

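The S phase and DNA replication genes described here are 37 rat genes listed by symbol for their known roles in DNA copying. A gene is a member by its symbol, not by a measured value, although the list was drawn up with earlier results of these data known. On the Affymetrix arrays, 34 of the 37 had a probe set carrying that symbol alone, and all 34 passed the filter on low values, out of 11509 genes tested in all. Each gene is represented by its tested probe set of highest mean, and calls and counts below are of that probe set unless another is named. Cdc6 and Gins2 had no probe set of that name in the annotation used, and Rrm2 appeared only on probe sets that carry several symbols, so these members have no value here. The arrays were made from mammary glands of Cop and F344 rats given N-nitrosomethylurea (NMU), an alkylating carcinogen used to induce mammary tumours in rats, or saline vehicle as control, at 55 days of age per the labels. Tissue was taken 6 h, 1 d or 30 d after dosing. The 12 groups of 3 arrays each are Cop NMU and Cop control at 6 h, at 1 d and at 30 d, and F344 NMU and F344 control at 6 h, at 1 d and at 30 d. The labels call the replicates biological and the design text names 18 rats of each strain, the same as the number of arrays, but whether glands were pooled is not stated, and neither are the dose of NMU and any processing batch. The p-values below rest on the variation among arrays of 1 group, averaged over the 12 groups, which may in part be technical.

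Cells copy their genome once per division. In G1 the licensing factor Cdt1 helps to load the Mcm2 to Mcm7 helicase onto origins, cyclin E (Ccne1, Ccne2) and the transcription factor E2f1 drive entry into S phase, and Cdc45 and the GINS complex then switch the helicase on. Polymerases copy the strands while held by the sliding clamp Pcna, which the Rfc complex loads, and most of these genes are known targets of E2F factors, so their mRNA is high in dividing tissue such as the growing ducts of a young mammary gland. A gland sample is bulk tissue, and fewer dividing cells cannot be told apart from less RNA per cell.

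Promoter sequences are shown for 6 members that were called below and hold an E2F-type match, each as the 150 bases before the annotated start in the RefSeq promoter table of build GRCr8, read 5′ to 3′ along the gene's strand. Capitals mark matches to any of the E2F-type letters TTTCCCGC, TTTCGCGC, TTTGCCGC or TTTGGCGC, read on both strands. Mcm6, a helicase subunit, lies at chr13:42404353-42404502 on the minus strand and holds a pair of overlapping matches on opposite strands, as do Mcm2 and Gins1. Pclaf, a Pcna-associated factor, lies at chr8:75315567-75315716 on the plus strand. Mcm2, another helicase subunit, lies at chr4:122918095-122918244 on the minus strand and Cdca7, a chromatin factor with roles in DNA methylation upkeep, at chr3:77730165-77730314 on the plus strand. Gins1, a GINS subunit, lies at chr3:160184770-160184919 on the plus strand, and Tyms, which encodes thymidylate synthase, at chr9:120776084-120776233 on the minus strand.
Mcm6: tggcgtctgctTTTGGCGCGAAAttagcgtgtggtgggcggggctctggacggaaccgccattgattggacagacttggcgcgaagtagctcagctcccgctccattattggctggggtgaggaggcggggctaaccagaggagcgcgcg
Pclaf: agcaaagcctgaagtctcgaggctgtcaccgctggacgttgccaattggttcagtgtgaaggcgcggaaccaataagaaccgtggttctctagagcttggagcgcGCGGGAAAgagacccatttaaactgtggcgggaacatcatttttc
Mcm2: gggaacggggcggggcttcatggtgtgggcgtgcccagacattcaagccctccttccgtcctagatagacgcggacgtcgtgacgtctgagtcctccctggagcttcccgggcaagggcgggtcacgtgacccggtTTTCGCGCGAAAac
Cdca7: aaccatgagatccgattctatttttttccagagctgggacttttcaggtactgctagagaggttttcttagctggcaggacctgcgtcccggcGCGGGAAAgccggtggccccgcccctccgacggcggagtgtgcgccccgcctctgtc
Gins1: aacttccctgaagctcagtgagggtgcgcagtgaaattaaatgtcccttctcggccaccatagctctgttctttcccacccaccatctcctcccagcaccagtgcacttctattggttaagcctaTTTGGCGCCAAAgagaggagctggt
Tyms: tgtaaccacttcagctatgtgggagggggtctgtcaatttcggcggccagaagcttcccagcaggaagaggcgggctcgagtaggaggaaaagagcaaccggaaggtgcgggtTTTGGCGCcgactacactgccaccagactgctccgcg

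Of the 34 measured members, 30 had a promoter entry, from 250 bases before to 50 after the start. Ccne2, E2f1, Mcm4 and Rpa3 had none. An E2F-type match lay in 16 of the 30 windows (53.3%), in 17 of 35 windows of other replication genes (48.6%), in 1 of 25 windows of G2 and M phase genes (4%) and in 536 of the 19005 windows of all protein-coding genes (2.82%). The letters CCAAT were found in 17 of the 30 member windows (56.7%), 19 of 25 G2 and M phase windows (76%) and 38.4% of all windows. The letters TTTGAA, the form of the cell cycle homology region searched here, were found in 4 member windows (13.3%), 17 of 25 G2 and M phase windows (68%) and 17% of all windows. None of the E2F-type letters was found in the windows of Pcna, Uhrf1, Ccne1, Tk1 or Cdc45, among others. These are matches of letters in equal windows, not binding measurements.

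**Figure D1:**
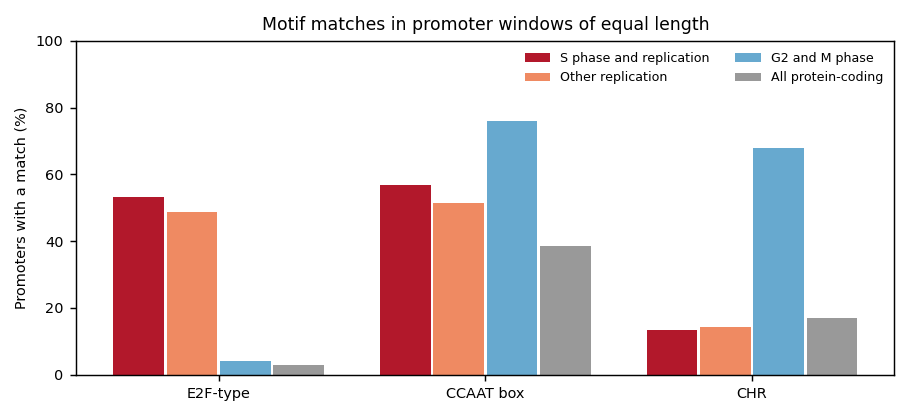
Share of promoter windows (percent, y axis) with a match to the E2F-type letters, the CCAAT box or the cell cycle homology region (CHR), for 30 S phase and replication members, 35 other replication genes, 25 G2 and M phase genes and 19005 protein-coding genes. The E2F-type share was 53.3% for the members and 2.82% for all protein-coding genes, and the CHR share was 13.3% for the members and 17% for all.

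All arrays had medians between 5.66 and 5.76 on the deposited log2 scale. The epithelial keratin Krt18 averaged 9.31 to 10.51 and the fat cell hormone Adipoq 11.38 to 12.34 over the 12 groups, so glandular and fat tissue were present in every group. Skeletal muscle RNA was present in unequal amounts: the muscle creatine kinase Ckm averaged 7.31 to 13.09. A score for a list, used below, is the mean over its genes of each array's deviation from the gene's mean over 36 arrays, in log2 units. The muscle score of 24 genes lay between 1.64 and 2.72 in the F344 controls at 6 h and 1 d, and between -3.74 and -0.417 in every other control array. Members' scores moved with single arrays as well. Replicate 1 was the lowest of the 3 Cop NMU arrays at 6 h in 32 of 34 members, replicate 2 the highest of the Cop controls at 30 d in 31, and replicate 2 the lowest of the F344 controls at 30 d in 31.

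**Figure D2:**
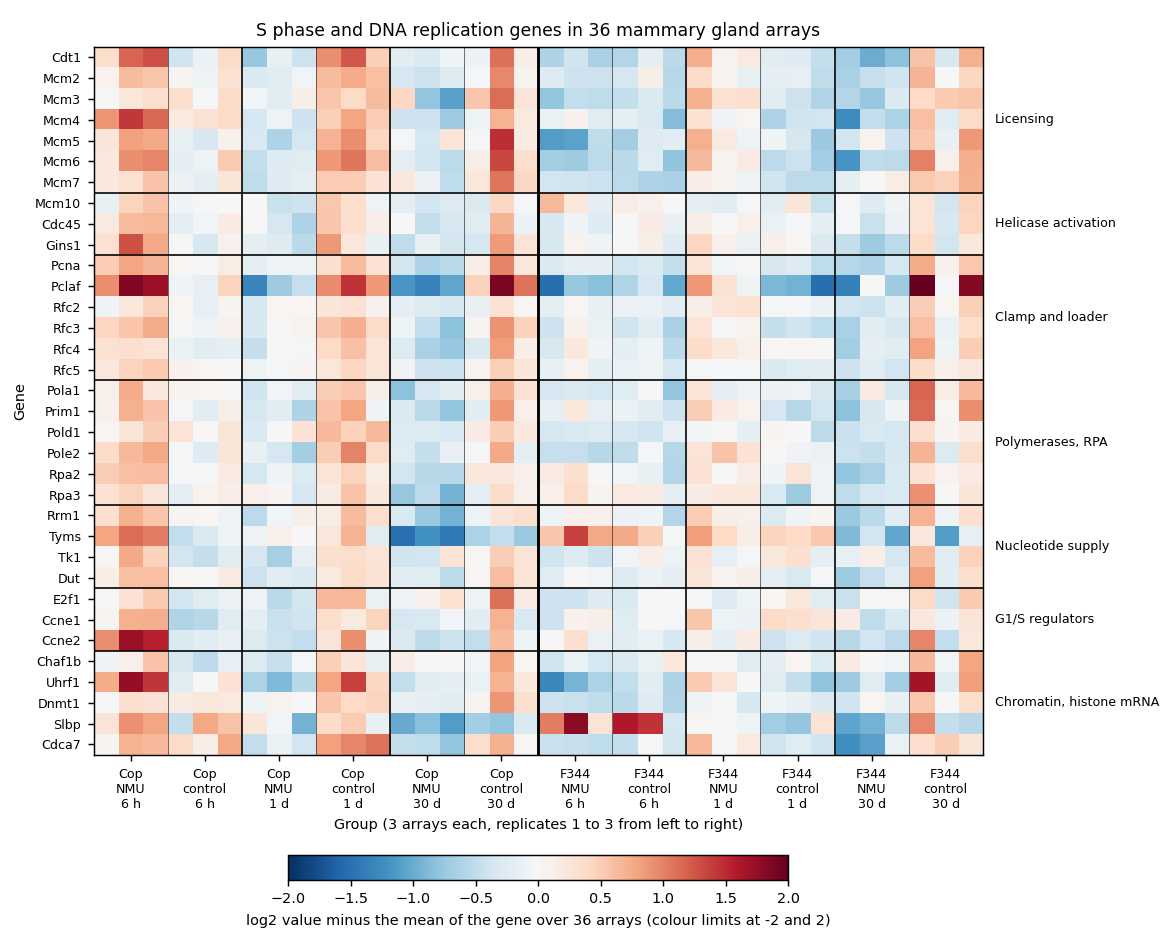
Log2 value of each of the 34 S phase and replication members (rows, by role) on each of the 36 arrays (columns, by group with replicates 1 to 3 from left to right), as the difference from the gene's mean over all arrays. Most members are above their mean in the Cop NMU arrays at 6 h and in the Cop controls at 1 d, and below it in the NMU arrays of both strains at 30 d.

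At 6 h after NMU, S phase genes were higher in Cop glands. Of the 34 members, 11 were called higher and 0 lower in Cop NMU than in Cop control glands (limma, adjusted p under 0.05 over all probe sets), where 4.68% of all genes were called higher and 3.29% lower. The median log2 difference over the members was 0.52, against 0.00 over all genes tested. For 21 members every NMU array lay above every control array, as for 17.8% of all genes. With the replicate number as a block 10 members were called. Without NMU replicate 2 the count was 2, without replicate 3 it was 3, and without control replicates 1 or 2 it was 3 and 5, while Ccne2 and Tyms kept their calls whichever array was left out.
The largest rise was that of Ccne2, the E-type cyclin that opens S phase with the kinase Cdk2. Ccne2 measured 5.20, 5.99 and 5.82 in Cop NMU arrays at 6 h, against 3.97, 4.04 and 4.10 in Cop control arrays. Its groups did not overlap, and the log2 difference was 1.64 (SE 0.27, adjusted p by limma 0.000218). The probe set was near the bottom of the scale elsewhere: it passed the filter's threshold on only 5 arrays, of which 3 were these NMU arrays. It was thus tested only because of the group in which it is high.

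Among the other G1/S regulators, Ccne1 rose by 0.97 (SE 0.223, adjusted p by limma 0.00618), and E2f1 was 0.52 higher without a call. In nucleotide supply, Tyms, which makes thymidylate, had 6.17, 6.49 and 6.41 in Cop NMU arrays against 4.88, 5.08 and 5.29 in Cop control arrays. That is a rise of 1.28 (SE 0.263, limma adjusted p 0.00232). Tk1, the salvage thymidine kinase, was also called, and Dut, which removes dUTP, was not (0.36).
In licensing, Mcm4 rose by 0.87 (SE 0.215, limma adjusted p 0.012) and Cdt1 was the other called gene of 7 (0.98). Mcm3 was the one member of the whole list with a difference below 0 (-0.03). Mcm6 had 7.52, 8.24 and 8.30 in Cop NMU arrays against 7.13, 7.21 and 7.84 in Cop control arrays, which overlap, and it was not called.
Pcna measured 10.92, 11.20 and 11.10 in Cop NMU arrays, against 10.45, 10.42 and 10.57 in Cop control arrays, and was called higher, as was its partner Pclaf (1.43). None of the 4 Rfc clamp loader members was called by its probe set of highest mean, though the other probe set of Rfc5 was (0.47, SE 0.139, limma adjusted p 0.0387). Of the polymerase and single-strand binding genes, Rpa2 was called (0.53, SE 0.138, limma adjusted p 0.0152), and of the helicase activators Gins1 was.
Uhrf1, which brings the maintenance methyltransferase Dnmt1 to newly copied DNA, had 5.91, 6.92 and 6.60 in Cop NMU arrays against 4.92, 5.16 and 5.45 in Cop control arrays. It rose by 1.30 (SE 0.318, limma adjusted p 0.011), whereas Dnmt1 itself was 0.02 higher, without a call.

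Other cell types moved in the same glands. In Cop NMU against Cop control glands at 6 h, 11 of 15 fibroblast markers were called higher, and the fibroblast score lay between 0.503 and 0.641 in NMU arrays and between -0.43 and -0.256 in control arrays. Of 19 T and NK cell markers 10 were called lower, with scores of -0.0731, -1.25 and -1.21 in NMU arrays and 0.865, 0.454 and 0.79 in control arrays. The first of those NMU arrays is also the one with the lowest member score, 0.275, beside 0.738 and 0.709 in replicates 2 and 3. Of 13 adipocyte markers 4 were called lower. No luminal epithelial marker of 18 was called, nor any of 24 muscle markers, whose median was 2.36. With the muscle score as a covariate 9 members were called. The part of the fibroblast, lymphoid and adipocyte markers in the S phase values was not tested.

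One day after NMU the sign was turned in Cop glands. In Cop NMU against Cop control glands, 10 of 34 members were called lower and 0 higher, where 0.452% of all genes were called lower and 0.6% higher. The median difference was -0.65, against 0.00 over all genes, and for 29 members every NMU array lay below every control array, as for 8.19% of all genes, and for 0 above (8.21% of all genes). Same-numbered NMU and control arrays deviated together in Cop glands at 1 d, though the labels give the numbers no meaning. With the replicate number as a block 5 members were called (Cdca7, Cdt1, Mcm7, Pole2 and Uhrf1). Leaving out 1 array gave 1 to 7 calls, with 1 call without control replicate 1 or 2 and 2 without NMU replicate 1 or 2, and Cdca7 was called in each case.
Cdca7, whose promoter is shown above with its E2F-type match, had 6.54, 6.90 and 6.65 in Cop NMU arrays at 1 d, against 7.85, 8.0 and 8.11 in Cop control arrays. The groups are apart by nearly 1 log2 unit at the closest, and Cdca7 fell by 1.29 (log2 difference -1.29, SE 0.223, limma adjusted p 0.0029).

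By role, 5 of 7 licensing genes were lower in Cop NMU than in Cop control glands at 1 d. Mcm6 had 6.82, 7.06 and 7.07 in Cop NMU arrays against 8.19, 8.39 and 7.94 in Cop control arrays, a difference of -1.19 (SE 0.264, limma adjusted p 0.0208). Cdt1 differed by -1.33 and Mcm7 by -0.76 (limma adjusted p 0.0165 and 0.0185). All 3 fell below their controls without overlap, and Mcm2 and Mcm4 were the other called licensing genes.
Uhrf1 had 4.53, 4.29 and 4.61 in Cop NMU arrays against 5.95, 6.54 and 5.58 in Cop control arrays, a difference of -1.54 (SE 0.318, limma adjusted p 0.0132). Pole2, a subunit of the leading strand polymerase, differed by -1.01 (SE 0.221, limma adjusted p 0.0185), and Pold1 and Pclaf were also called. Pcna had 10.24, 10.32 and 10.33 in Cop NMU arrays against 10.73, 11.04 and 10.70 in Cop control arrays, groups that do not overlap but whose difference was not called. Ccne2 had 3.99, 3.84 and 3.77 in Cop NMU arrays against 4.52, 5.20 and 4.18 in Cop control arrays and was likewise not called. No helicase activation, nucleotide supply or G1/S gene was called by its probe set of highest mean, but a further probe set of Tk1 was (-1.22, SE 0.254, limma adjusted p 0.0134). Of 13 adipocyte markers 2 were called higher, and none of the 18 luminal, 24 muscle or 19 T and NK cell markers was called, though all 24 muscle markers were above 0 (median 1.16).

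The response of Cop glands at 1 d was set directly against that at 6 h, each as NMU minus control. In 24 of 34 members it was called lower at 1 d, where 2.16% of all genes were called lower and 0.878% higher (3.04% either way), and the median difference between the responses was -1.18. With the replicate block the count was 17. Without Cop NMU replicates 2 or 3 at 6 h, control replicate 2 at 1 d or NMU replicate 1 at 1 d it was 14 or 15. The calls covered every role: 6 of 7 licensing genes, 2 of 3 helicase activators, 4 of 6 clamp and loader genes, 3 of 6 polymerase and single-strand binding genes, 4 of 4 nucleotide genes, 3 of 3 G1/S regulators and 2 of 5 chromatin genes. Ccne2 had the smallest p (-2.40, SE 0.382, limma adjusted p 0.000358), and Uhrf1 (-2.84), Cdt1 (-2.32), Mcm4 (-1.74), Rpa2 (-1.05) and Pclaf (-3.34) followed. The Ccne2 probe set was above the filter's threshold on only 5 arrays. It passed the filter only with the Cop NMU arrays at 6 h counted, where it is high. The difference was above 0 at 6 h and below 0 at 1 d in 33 of the 34 members, Mcm3 being the exception. Cdt1, Mcm4, Pclaf and Uhrf1 passed the test at both times. Of 15 fibroblast markers 10 were called lower in the same test (median -1.17), and of 13 adipocyte markers 4 were called higher. Their part in the members' values was not tested.

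Because this turn rests on 4 groups, the 1 d and 6 h groups were also compared without their partners, a comparison added after the values were seen. Cop NMU glands at 1 d had 22 members lower than Cop NMU glands at 6 h (median -0.78), where 5.48% of all genes were called lower, and 0 higher (3.23% of all genes). Mcm4 differed by -1.44 (SE 0.215, limma adjusted p 5.79e-05) and Pclaf by -2.33 (SE 0.434, limma adjusted p 0.000912). The count was 9 and 10 without NMU replicate 2 or 3 at 6 h, and 13 without NMU replicate 1 at 1 d. Mcm4 had 6.74, 6.98 and 6.68 in Cop NMU arrays at 1 d, against 7.97, 8.51 and 8.24 in Cop NMU arrays at 6 h. The groups stand apart by about 1 log2 unit. In the same comparison 12 of 15 fibroblast markers were called lower (median -0.92) and 4 of 13 adipocyte markers higher.
Cop control glands at 1 d were higher than Cop control glands at 6 h in 33 of 34 members by sign (median 0.46). In 26 members the 1 d controls lay above the 6 h controls without overlap, as for 10.1% of all genes. None was called by its probe set of highest mean, where 0.174% of all genes were called higher and 0.434% lower, though 19 had an unadjusted p under 0.05, and Ccne1 came closest (0.80, SE 0.223, limma adjusted p 0.104). A further probe set of Tk1 was called (1.10, SE 0.254, limma adjusted p 0.0389). The Cop difference at 1 d thus holds NMU levels below those at 6 h and control levels above them.

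**Figure D3:**
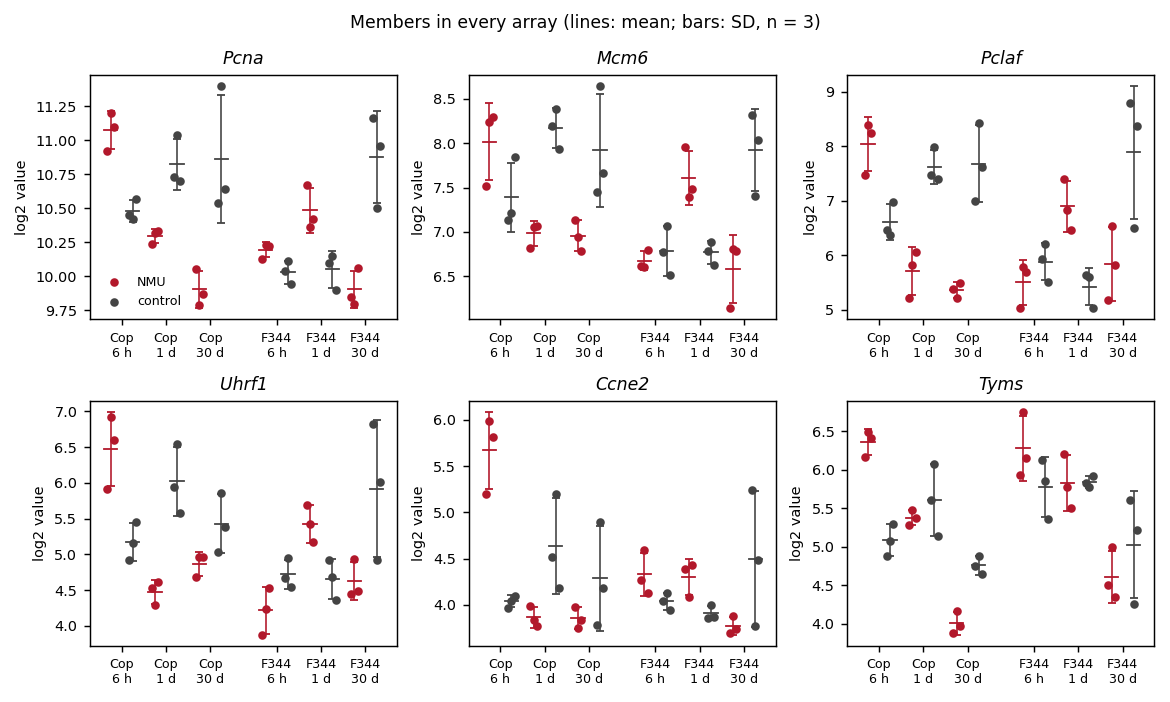
Log2 value of Pcna, Mcm6, Pclaf, Uhrf1, Ccne2 and Tyms on every array (points), with group mean (line) and SD (bar, n = 3), NMU in red left of control in grey for each strain and time. In Cop glands NMU points lie above control points at 6 h, except where the Mcm6 groups overlap, and below them at 1 d, except where Tyms groups overlap.

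F344 glands showed no call in either direction at 6 h. The count was 0 of 34 members higher and 0 lower in F344 NMU against F344 control glands by limma, where 0.495% of all genes were called higher and 0.243% lower, and 1 member had an unadjusted p under 0.05. The median difference was 0.02. Every NMU array lay above every control array for 4 members (17.7% of all genes) and below for 2 (7.99%). Rpa2 (0.43, SE 0.138, limma adjusted p 0.164), Tyms (0.50) and Mcm5 (-0.51) had the smallest p. Pcna had 10.13, 10.23 and 10.22 in F344 NMU arrays against 10.04, 10.11 and 9.94 in F344 control arrays at 6 h. Uhrf1 had 3.88, 4.24 and 4.53 in F344 NMU arrays against 4.67, 4.95 and 4.55 in F344 control arrays, and Ccne2 had 4.27, 4.59 and 4.13 against 4.04, 4.13 and 3.94. The Pcna groups do not overlap, nor do those of Uhrf1, which lie the other way, while the highest Ccne2 control equals the lowest NMU value at 2 decimals.

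At 1 d the F344 members leaned upward without passing the test. Again 0 of 34 were called by limma in F344 NMU against F344 control glands, where 1.08% of all genes were called higher and 0.148% lower (1.23% either way), but 14 members had an unadjusted p under 0.05 and the median was 0.36. For 21 members every NMU array lay above every control array, as for 11.2% of all genes, and for 0 below (7.35%). Mcm3 was nearest to a call (0.87, SE 0.238, limma adjusted p 0.0779), followed by Pclaf (1.48, SE 0.434, limma adjusted p 0.126) and Mcm6 (0.84, SE 0.264, limma adjusted p 0.168). With the 6 compared arrays fitted alone, those 3 genes were called. Mcm6 had 7.96, 7.39 and 7.48 in F344 NMU arrays at 1 d against 6.79, 6.89 and 6.63 in F344 control arrays. Pcna had 10.67, 10.36 and 10.42 in F344 NMU arrays against 10.10, 10.15 and 9.90 in F344 control arrays, and Uhrf1 had 5.69, 5.42 and 5.17 against 4.92, 4.69 and 4.37. In all 3 genes the groups were apart, with NMU replicate 1 highest.
That NMU replicate was the highest of its group in 25 of 34 members, and its muscle score was -2.30, against 2.45 and 1.25 in NMU replicates 2 and 3 and 2.03 to 2.71 in F344 controls. With the muscle score as a covariate 0 members were called as well. Of 19 T and NK cell markers 3 were called higher, and the T and NK cell score was 0.323 to 0.41 in F344 NMU arrays at 1 d and -0.103 to 0.0567 in F344 control arrays, without overlap. The part of these lymphoid markers was not tested. Without their partners, a comparison again added after the values were seen, F344 NMU glands at 1 d were above F344 NMU glands at 6 h in 4 called members, where 1.56% of all genes were called higher: Mcm3 (1.05), Pole2 (0.87), Mcm5 (1.16) and Uhrf1 (1.21). Without NMU replicate 1 of either time 0 were called, and 1 with the muscle score as a covariate. F344 controls at 1 d differed from F344 controls at 6 h in 0 members by limma, where 0.0521% of all genes were called higher and 0% lower, with 3 at an unadjusted p under 0.05 and a median of 0.01. The response of F344 glands at 1 d minus that at 6 h was called in 0 members, where 0.374% of all genes were called higher and 0.0695% lower, with 6 at an unadjusted p under 0.05.

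The strain difference was tested as the Cop response minus the F344 response, each NMU minus control. At 6 h, 1 member passed, where 0.86% of all genes were called higher and 0.252% lower (1.11% either way): Uhrf1, with a difference of 1.80 (SE 0.45, limma adjusted p 0.047). The median over the members was 0.37, against -0.078 over all genes. All 34 were above 0, and 13 had an unadjusted p under 0.05 by limma. The Uhrf1 call was lost under 5 of the 7 other settings and when any of 9 of the 12 arrays was left out. A further probe set of Tk1 was also called (1.54, SE 0.359, limma adjusted p 0.0287), while that of highest mean was not (1.12). Of 15 fibroblast markers 10 were called higher in this test (median 1.37), and their part was not tested.
At 1 d, 8 members passed, all with the Cop response lower, where 0.269% of all genes were called lower and 0.0174% higher (0.287% either way), and the median was -0.90. They were Cdca7, Mcm7, Mcm6, Pclaf, Uhrf1, Cdt1, Mcm4 and Pole2. Cdca7 had 7.68, 7.02 and 7.22 in F344 NMU arrays against 6.63, 6.79 and 6.63 in F344 control arrays at 1 d, opposite in direction to the Cop values given above. Its strain difference was -1.91 (SE 0.316, limma adjusted p 0.00334). Mcm7 differed by -1.28 (SE 0.234), Mcm6 by -2.04 (SE 0.373) and Pclaf by -3.39 (SE 0.613), each with a limma adjusted p of 0.0086. Pclaf had 5.22, 5.83 and 6.07 in Cop NMU arrays against 7.48, 7.98 and 7.40 in Cop control arrays, but 7.40, 6.84 and 6.46 in F344 NMU arrays against 5.64, 5.60 and 5.03 in F344 control arrays. Pclaf was thus below its controls in Cop NMU glands and above them in F344 NMU glands, without overlap. The F344 difference alone was not called. Cop controls lay above F344 controls (log2 difference 2.20), while Cop NMU arrays lay below F344 NMU arrays. The strain difference in response thus includes the difference between controls.
Cdca7 and Mcm7 were called whichever of the 12 arrays was left out. The count was 2 without F344 NMU replicate 1, 4 or 5 without F344 control replicates 3 or 2, Cop control replicate 2 or Cop NMU replicate 2, 4 with the replicate block (Cdca7, Cdt1, Mcm6 and Mcm7) and 4 with the muscle score as a covariate. All 24 muscle markers had a strain difference above 0 at 1 d (median 2.99), and none was called. With the muscle covariate the members' median was -0.80. Of 19 T and NK cell markers 1 was called lower.

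**Figure D4:**
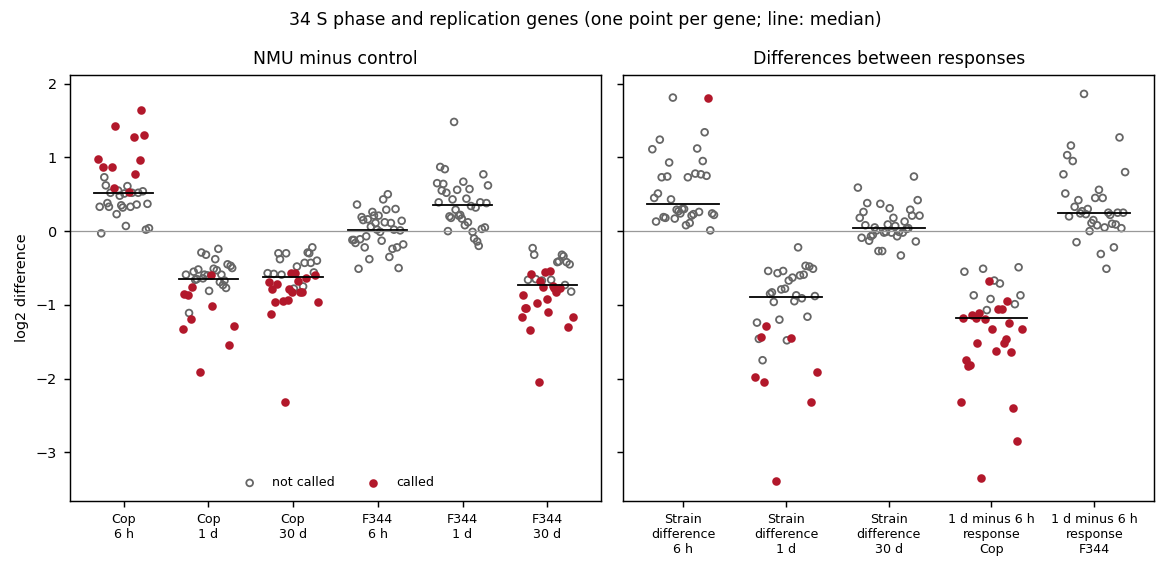
Log2 differences of the 34 members (points, called ones filled) for NMU minus control in each strain and time (left) and for differences between responses (right), with the median as a line. Medians are 0.52, -0.65 and -0.61 in Cop glands at 6 h, 1 d and 30 d, and 0.02, 0.36 and -0.73 in F344 glands.

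At 30 d after NMU, S phase genes were lower in both strains. In Cop NMU against Cop control glands 18 of 34 members were called lower and 0 higher, where 6.36% of all genes were called lower and 4.84% higher, with a median of -0.61 (-0.025 over all genes). In F344 NMU against F344 control glands 20 were called lower and 0 higher, where 3.65% of all genes were called lower and 0.686% higher (4.34% either way), with a median of -0.73 (-0.047 over all genes). Every NMU array lay below every control array for 21 members in Cop (10.5% of all genes) and 20 in F344 (15.1%), and above for 0 in either strain (8.21% in Cop and 9.37% in F344). The strain difference in response at 30 d was called in 0 members by limma, as in 0% of all genes, with 0 members at an unadjusted p under 0.05 and a median of 0.04.
Pcna had the smallest p in both strains and kept its call whichever array was left out. It measured 10.05, 9.79 and 9.87 in Cop NMU arrays at 30 d, against 10.54, 11.40 and 10.64 in Cop control arrays, a difference of -0.95 (SE 0.159, limma adjusted p 0.000697). It measured 9.85, 9.80 and 10.06 in F344 NMU arrays, against 11.16, 10.50 and 10.96 in F344 control arrays, a difference of -0.97 (SE 0.159, limma adjusted p 0.00247). Neither pair of groups overlaps, and the 6 NMU arrays of both strains span less than 0.3 log2 units.

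Called lower at 30 d in both strains were 16 members, where 6.36% of all genes were called lower in Cop and 3.65% in F344 glands. The share of all genes called lower in both strains was not counted. They are 5 helicase subunits (Mcm2, Mcm3, Mcm4, Mcm6 and Mcm7), the clamp group Pcna, Pclaf, Rfc4 and Rfc5, the polymerases Pola1 and Pold1, the single-strand binding subunits Rpa2 and Rpa3, Rrm1 and Dut of nucleotide supply, and Cdca7. Of the 22 called in at least 1 strain, Rfc3 and Dnmt1 were called in Cop glands alone and Cdt1, Uhrf1, Prim1 and Rfc2 in F344 glands alone, which the tests of the strain difference do not separate.
Pclaf fell most in Cop glands, with 5.38, 5.21 and 5.50 in Cop NMU arrays against 7.0, 8.42 and 7.63 in Cop control arrays, a difference of -2.32 (SE 0.434, limma adjusted p 0.00223). Rfc5 (-0.57), Rpa2 (-0.68), Rfc3 (-0.94) and Mcm3 (-1.12) came next by p. In F344 glands Rpa2 (-0.74), Cdca7 (-1.17), Rfc2 (-0.68), Mcm6 (-1.34) and Rfc5 (-0.56) followed Pcna. Mcm6 had 6.14, 6.81 and 6.79 in F344 NMU arrays against 8.32, 7.41 and 8.04 in F344 control arrays, and 7.14, 6.94 and 6.79 in Cop NMU arrays against 7.45, 8.65 and 7.66 in Cop control arrays. In both strains all NMU values of Mcm6 lie below all control values.
No G1/S regulator and no helicase activator was called at 30 d in either strain. Ccne2 had 3.98, 3.75 and 3.84 in Cop NMU arrays against 3.78, 4.90 and 4.18 in Cop control arrays, and 3.70, 3.88 and 3.74 in F344 NMU arrays against 5.24, 3.77 and 4.49 in F344 control arrays. Uhrf1 had 4.68, 4.96 and 4.97 in Cop NMU arrays against 5.04, 5.86 and 5.38 in Cop control arrays without a call, and 4.45, 4.93 and 4.49 in F344 NMU arrays against 6.83, 4.92 and 6.01 in F344 control arrays with one. Ccne2 overlaps in both strains and Uhrf1 in F344. A set of 7 members, Cdca7, Mcm2, Mcm4, Mcm6, Mcm7, Pclaf and Pold1, were called lower in Cop glands at 1 d and also at 30 d in both strains. Of all genes 0.452% were called lower in Cop glands at 1 d, and at 30 d 6.36% in Cop and 3.65% in F344 glands. The share of all genes called lower in each of these comparisons together was not counted. At 1 d only Cdca7 of this set kept its call whichever array was left out. Mcm2 and Mcm4 lost theirs in every case.

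These 30 d counts depend on the spread pooled over all groups and on single arrays. The control arrays varied most: the median SD of a member was 0.432 in Cop controls and 0.443 in F344 controls at 30 d, against 0.171 in Cop NMU and 0.238 in F344 NMU arrays. With the 6 compared arrays fitted alone 0 members were called in either strain. In Cop glands the count was 9 without control replicate 2 and 4 without NMU replicate 3, and in F344 glands it was 2 without control replicate 1, 8 without control replicate 3, 1 without NMU replicate 1 and 10 without NMU replicate 2. In F344 glands it was 0 with the muscle score as a covariate, with a median of -0.62.
In F344 glands muscle moved with the groups. The score was 1.39, 0.966 and -0.425 in F344 NMU arrays at 30 d, against -3.74, -0.532 and -2.94 in F344 control arrays. All 24 muscle markers were above 0, with a median of 3.46. None was called, though 19 had an unadjusted p under 0.05 by limma. In Cop glands the muscle score was -3.39, 1.40 and 0.493 in NMU arrays and -1.16, -0.417 and -0.445 in controls, and with it as a covariate 19 members were called. In Cop glands 10 of 19 T and NK cell and 5 of 9 B cell markers were called lower, and 8 of 10 endothelial, 8 of 15 fibroblast and 3 of 13 macrophage markers higher. The endothelial score was 0.481 to 0.995 in Cop NMU arrays and -0.119 to 0.208 in Cop controls. The T and NK cell score was 0.681, -1.85 and -1.80 in Cop NMU arrays against 0.879, 0.38 and 0.637 in Cop controls. The member score was -0.332 in the NMU replicate whose T and NK cell score lay within the controls, and -0.45 and -0.468 in the other two. Of 18 luminal markers 2 were called lower in Cop and 1 in F344 NMU glands, and 3 of 10 endothelial markers were called higher in F344 NMU glands. By sign 17 luminal markers were below 0 in Cop glands (median -0.70), and 11 of 18 had an unadjusted p under 0.05 by limma. In F344 glands 15 were below 0 (median -0.25), and 5 had an unadjusted p under 0.05. The part of these lymphoid, endothelial, fibroblast, macrophage and luminal markers in the 30 d values was not tested.

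**Figure D5:**
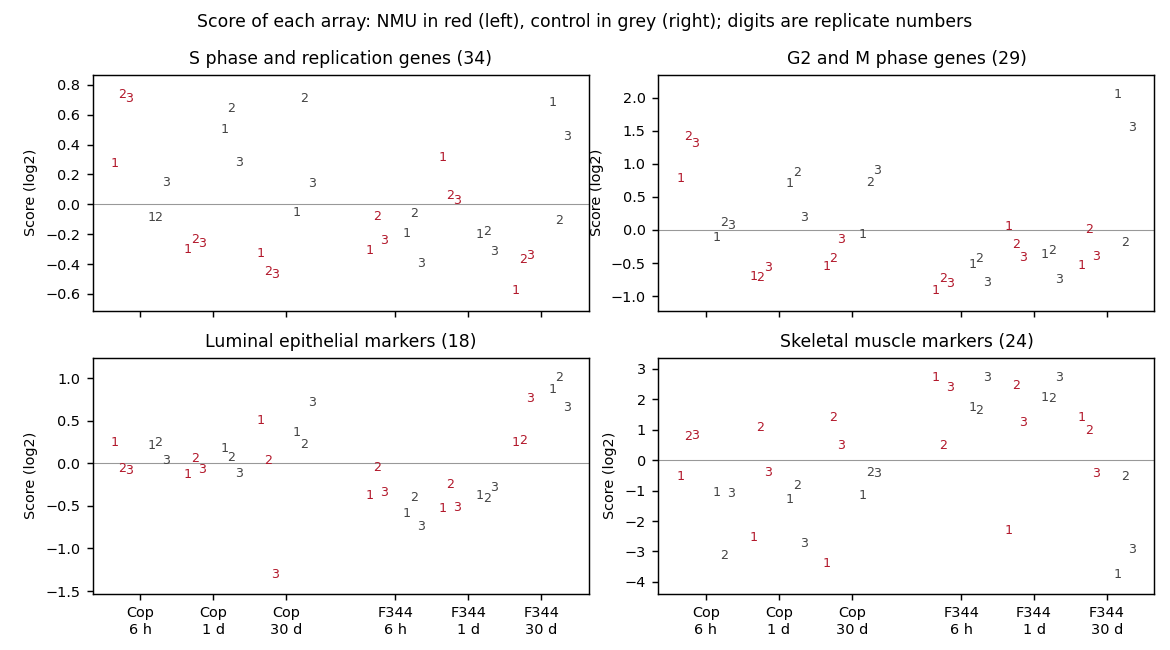
Score of each array (log2 units, y axis; digits are replicate numbers) for the 34 S phase and replication genes, 29 G2 and M phase genes, 18 luminal markers and 24 skeletal muscle markers, NMU in red left of control in grey. The member scores of NMU arrays at 30 d lie between -0.58 and -0.332, below every control array at 30 d, whose lowest is -0.108.

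Saline-treated glands of the strains differed at the early times, in more members at 1 d than at 6 h. In Cop control against F344 control glands 18 members were higher and 0 lower at 1 d (median 0.66), where 6.79% of all genes were called higher, and for 25 members the groups did not overlap, as for 18.4% of all genes. At 6 h 7 members were higher and 0 lower, where 13.1% of all genes were called higher and 8.18% lower (21.2% either way). The median was 0.26, against 0.091 over all genes. Every Cop control array lay above every F344 control array for 15 members (29.3% of all genes) and below for 3 (15.8%). At 30 d none was called, where 1.07% and 1.6% of all genes were called higher and lower, and 1 had an unadjusted p under 0.05.
Cdca7 had 7.85, 8.0 and 8.11 in Cop control arrays at 1 d against 6.63, 6.79 and 6.63 in F344 control arrays, a difference of 1.30 (SE 0.223, limma adjusted p 0.000176). Mcm7 (0.92), Mcm6 (1.40), Rfc3 (1.01), Pold1 (0.75) and Pclaf (2.20) came next. All 7 licensing genes were higher, and no G1/S regulator, helicase activator or nucleotide gene was called. At 6 h Dnmt1, the maintenance DNA methyltransferase, had 8.0, 8.07 and 8.04 in Cop control arrays against 7.30, 7.58 and 7.24 in F344 control arrays, a difference of 0.66 (SE 0.154, limma adjusted p 0.00343), and Mcm7 (0.58), Mcm4 (0.74), Pold1 (0.49), Cdca7 (0.72) and Pcna (0.45) followed.
Muscle differed between the same groups, with 16 of 24 muscle markers lower in Cop controls at both times (medians -4.25 at 6 h and -4.18 at 1 d). With the muscle score as a covariate 10 members were called at 1 d (median 0.54) and 1 (Dnmt1) at 6 h (median 0.16). At 6 h 7 of 11 basal, 4 of 18 luminal and 7 of 10 endothelial markers were higher in Cop controls and 8 of 15 fibroblast markers lower, and at 1 d 10 of 13 adipocyte and 5 of 15 fibroblast markers were lower and 3 of 11 basal markers higher. The part of these other markers was not tested. Leaving out any 1 array gave 2 to 4 calls at 6 h and 14 to 19 at 1 d.

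F344 control glands at 30 d were set against the mean of F344 controls at 6 h and 1 d. Here 23 members were higher, where 16.4% of all genes were called higher, and 1 was lower, where 15.4% were called lower; the median was 0.54. Mcm7 had 9.54, 9.48 and 9.72 in F344 control arrays at 30 d, against 8.49, 8.40 and 8.36 at 6 h and 8.62, 8.49 and 8.49 at 1 d. All 3 later arrays lay above all 6 earlier ones, and Mcm7 rose by 1.10 (SE 0.143, limma adjusted p 1.05e-06). Pcna (0.83), Pclaf (2.24), Mcm6 (1.15), Prim1 (1.04) and Dnmt1 (0.61) followed, and Tyms was the one member called lower (-0.78). Without F344 control replicate 1 at 30 d the count was 14.
The tissue differed too: 23 of 24 muscle markers were lower (median -5.09) and 16 of 18 luminal and 8 of 11 basal epithelial markers were higher at 30 d, and 8 of 13 adipocyte markers lower. With the muscle score as a covariate 5 members were called, Mcm7, Pclaf, Pcna, Pola1 and Tyms, and the median was 0.44. The part of epithelial and adipocyte markers was not tested. In Cop controls the same comparison called 0 members by limma, where 1.95% and 6.53% of all genes were called higher and lower; 3 had an unadjusted p under 0.05, and the median was 0.07. Time after injection, age and day of collection cannot be told apart in these comparisons of controls.

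Replication genes outside the list behaved as follows. Of 41 tested, 10 were higher in Cop NMU than in Cop control glands at 6 h (median 0.33), among them Asf1b, a histone chaperone (1.13, SE 0.246, limma adjusted p 0.00408), Ccna2, the S phase cyclin A2 (1.70), and Gmnn, the Cdt1 inhibitor geminin (1.05). At 1 d 3 of 41 were lower (median -0.38), namely Asf1b (-1.12), Ccna2 (-1.86) and the origin subunit Orc6. At 30 d 10 of 41 were lower in Cop NMU glands, with Ung, a uracil-DNA glycosylase, at -1.09 (SE 0.171, limma adjusted p 0.000558), the histone carrier Nasp at -0.98, the flap nuclease Fen1 at -0.65 and the ligase Lig1 at -0.56. In F344 NMU glands 0 of 41 were called by limma at 6 h and at 1 d (2 and 6 at an unadjusted p under 0.05), and 13 were lower at 30 d, led by Ccna2 (-2.41, SE 0.435, limma adjusted p 0.00428).
G2 and M phase genes act after the genome has been copied. Of 29 tested, 15 were higher in Cop NMU glands at 6 h (median 1.26), 8 lower at 1 d (median -1.10) and 8 lower at 30 d (median -0.84). The mitotic kinase Aurkb was 1.54 higher at 6 h (SE 0.304, limma adjusted p 0.00164), and the proliferation marker Mki67 was lower at 1 d (log2 difference -2.49, SE 0.475, limma adjusted p 0.00789). In F344 NMU glands none was called at 6 h or 1 d by limma, none with an unadjusted p under 0.05 at either time, and 20 were lower at 30 d (median -1.50). The strain difference in response was called for 1 G2 and M phase gene at 6 h (Aurkb, 1.78) and 1 at 1 d (Cks2, -2.27). Its median over the 29 genes was 1.36 at 6 h and -1.46 at 1 d, against 0.37 and -0.90 over the members. By limma 22 of the 29 had an unadjusted p under 0.05 at 6 h, and 24 at 1 d. The strain difference at 1 d was thus not particular to the members.
Of 15 G1 inhibitors, D cyclins and their partners, the p53 target Cdkn1a, which holds cells in G1, was higher at 6 h in both strains. The difference was 1.33 in Cop NMU against Cop control glands (SE 0.259, limma adjusted p 0.00147) and 1.45 in F344 NMU against F344 control glands (SE 0.259, limma adjusted p 0.0066). The strain difference of Cdkn1a was -0.13 (SE 0.367), which is no call (limma adjusted p 0.931). Ccng1, another p53 target, rose by 1.20 in Cop glands at 6 h, and the inhibitor Cdkn1c by 1.33 in Cop glands at 1 d. The list did not rise as a group: in Cop glands at 6 h 2 of 15 were called higher and 1 lower. The median there was -0.03, with 8 genes below 0. At 30 d 1 was called lower in Cop and 2 in F344 NMU glands, and 0 higher in either.

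The members themselves differed in range. Pclaf spanned 5.03 to 8.80 over the 36 arrays, a range of 3.77, and Uhrf1 3.88 to 6.92, while Rfc2, a clamp loader subunit, spanned 0.91 and Rfc5 0.96. Cdc45, Chaf1b, E2f1, Mcm10, Mcm5 and Slbp were called in none of the 6 comparisons of NMU with control. Slbp was called in none of the 20 comparisons made, and Mcm10 only by its other probe set, lower in Cop NMU glands at 1 d than in Cop NMU glands at 6 h (-0.81, SE 0.227, limma adjusted p 0.0249). Chaf1b is a subunit of the factor that assembles histones behind the fork and Slbp binds histone mRNA. For 5 members several probe sets were tested. None was called in opposite directions, but the 3 probe sets of Tk1 gave 0.77, 1.20 and -0.02 in Cop glands at 6 h, and the 2 of Dut gave -0.63 and 0.05 in Cop glands at 30 d. A further probe set of Tk1 was called lower in Cop NMU glands at 30 d (-0.78, limma adjusted p 0.0471), and one of Rfc5 higher in Cop than in F344 controls at 6 h (0.41, limma adjusted p 0.0378), where the probe sets of highest mean were not.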

How the data were processed

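Per the labels' protocols, RNA came from Qiagen RNeasy Maxi columns, and 1 ug of it went into each biotinylated cRNA target. The deposited values are the authors' log2 expression values per probe set; GCOS is named in the submitters' processing notes, and the steps of summarizing and scaling are not stated in labels or headers. Array medians (5.66 to 5.76) were close, so values were used as deposited. Of 31099 probe sets, 57 are controls, 20832 carry 1 symbol in the platform annotation, 436 several and 9831 none. Those above the 40th percentile of their array on at least 3 arrays, controls aside, were tested (20748), whether they carry 1 symbol, several or none. Among the 20748, the probe sets with 1 symbol cover 11509 genes. Where a gene had several of these, that with the largest mean was taken. Of the members' 45 probe sets 40 were tested.

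A mean for each of 12 groups was fitted to 36 arrays with limma 3.58.1 in R 4.3.3 (trend, robust), two-sided, with Benjamini-Hochberg adjustment over all probe sets and calls at an adjusted p under 0.05. Tables and figures were made with Python 3.11.15. Named members are the up to 6 called with the smallest p in each comparison, or the 3 of smallest p where none was called; other names complete a role group. The members and lists were chosen with earlier results of these data known. The comparisons of 1 d with 6 h within 1 treatment were added after the data were seen. Alternatives were quantile normalization, no filter, averaging each gene's probe sets, no trend, the compared groups alone, the replicate number as a block, the muscle score as a covariate and leaving out each array. The numbers were checked as pairs: same-numbered NMU and control arrays deviated together in all 3 pairs (r over 0.1) in Cop at 6 h (0.114, 0.142 and 0.435) and 1 d (0.202, 0.424 and 0.315), and in no other strain and time. In Cop at 6 h the pairing is not clear, since NMU replicate 1 had 0.160 with control replicate 2. Same-numbered arrays in F344 at 6 h had -0.014, 0.350 and 0.507. On simulated data for Cop at 6 h (20748 probe sets) the fit recovered 89 of 100 changes of 1 log2 unit and 100 of 100 of 2, with 12 false calls. The simulated noise was independent between probe sets, with the same SD in all groups. The arrays here show shifts shared by many members and unequal spread between groups, so these rates need not hold for them. Changes under 1 log2 unit were not simulated. The number of arrays limits the precision.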

Additional observations from a re-analysis of the deposited data

Results flagged for a closer look

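Responses to NMU that differed between strains or times by their own test were these. At 6 h the Cop response exceeded the F344 response in 1 member, Uhrf1 (1.80), where 0.86% of all genes were called higher. That call was lost under 5 of 7 other settings. At 1 d the Cop response was lower in 8 members, where 0.269% of all genes were called lower, and in 2 without F344 NMU replicate 1. The 8 were led by Cdca7 (-1.91), Mcm7 (-1.28), Mcm6 (-2.04), Pclaf (-3.39), Uhrf1 (-2.31) and Cdt1 (-1.98). In Cop glands the response at 1 d was lower than that at 6 h in 24 members, where 2.16% of all genes were called lower, led by Ccne2 (-2.40), Uhrf1 (-2.84), Cdt1 (-2.32), Mcm4 (-1.74), Rpa2 (-1.05) and Pclaf (-3.34). Ccne2 passed the filter only with the Cop NMU arrays at 6 h counted, and was near the bottom of the scale on most others.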

How the results depend on the processing

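The number of members called changed by over 1.5 times under these settings. Quantile normalization gave 7 in Cop at 6 h, 4 between controls at 6 h and 0 for the strain difference at 6 h. The strain difference at 6 h also gave 0 with no filter, with no trend, with the replicate block and with the muscle score, and 5 with the compared groups alone. The replicate block, which treats same-numbered arrays as pairs, gave 5 in Cop at 1 d and 4 for the strain difference at 1 d. Apart from these and the strain difference at 6 h, it moved no count by over 1.5 times. Comparisons within controls or within 1 treatment had no block fit. The compared groups alone, with fewer arrays behind the spread, gave 0 in Cop and 0 in F344 at 30 d, 3 in F344 at 1 d, 15 for the strain difference at 1 d, 1 for F344 responses at 1 d minus 6 h and 3 for Cop controls at 1 d minus 6 h. The muscle score as a covariate gave 0 in F344 at 30 d, 4 for the strain difference at 1 d, 1 and 10 between controls at 6 h and 1 d, 5 for F344 controls at 30 d and 1 for F344 NMU at 1 d minus 6 h. The cause was not tested. Averaging each gene's probe sets changed none of these counts by over 1.5 times.

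Leaving out each array in turn gave 2 to 12 calls in Cop at 6 h, 1 to 7 at 1 d and 4 to 20 at 30 d, and 0, 0 and 1 to 24 in F344. It gave 0 to 3, 2 to 8 and 0 for the strain differences at 6 h, 1 d and 30 d, 14 to 25 for the Cop and 0 for the F344 responses at 1 d minus 6 h, and 2 to 4, 14 to 19 and 0 between controls. Controls at 30 d against earlier gave 0 to 1 in Cop and 14 to 25 in F344. At 1 d against 6 h it gave 9 to 23 in Cop NMU, 0 in Cop control, 0 to 3 in F344 NMU and 0 in F344 control. No called value of a named member changed sign; of the named members' values under other settings 1110 stayed on the same side of the threshold, 142 lost the call and 6 gained one. With 3 arrays a group, a low count does not show that genes did not change.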
